A study of Mus musculus with 15 samples.

Results

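The 39 interferon-stimulated genes described here are a list of gene symbols, and their choice was made with earlier results of these data known. All 39 were found among the 54532 genes of the expression table, by matching Ensembl identifiers to the GRCm38 mouse annotation. The values are mRNA levels of 15 kidneys from male C57BL/6 mice that were 8 weeks old at the start, with 5 kidneys in each of 3 groups. The control group (C) ate normal chow, and the CKD model group (M) ate chow with 0.25% adenine for 4 weeks, a diet whose crystals injure the renal tubules. The AA group ate the same adenine chow and also received asiatic acid (AA), a plant triterpenoid, at 30 mg/kg by daily gavage. Adenine stopped after 4 weeks, all mice then ate standard chow, AA went on until week 8, and no allele differed between the groups. C and M mice were gavaged with the vehicle, a dilution of DMSO in saline. The AA libraries analysed here are of a single dose, none is from mice given AA without adenine, and each library is 1 mouse.

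Interferons are secreted proteins that cells release when they sense foreign or misplaced nucleic acid. Type I interferons bind the receptor pair Ifnar1 and Ifnar2, and the kinases Jak1 and Tyk2 then activate Stat2, which joins Irf9 in the factor ISGF3. ISGF3 binds the interferon-stimulated response element (ISRE) in promoters, whereas interferon gamma works through the gamma-activated site (GAS). The genes switched on in this way encode nucleic acid sensors, enzymes that block viral RNA and protein synthesis, membrane proteins that stop viral entry or release, and factors that amplify or end the response. In kidneys, tubular cells, endothelial cells and infiltrating leukocytes can all express them.

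The ISRE is the sequence that ties these genes together, so matches are shown for members whose values are described below. The letters GAAANNGAAA were searched on both strands of RefSeq promoter windows (GRCm38.p6) that run from 250 bases before to 50 bases after each start site. Of the 30 members with a listed promoter, 18 (60.0%) held the letters, against 3.44% of all 32851 promoters and 3.99% of the 27025 genes these belong to. The GAS letters TTCNNNGAA, whose reverse complement reads the same, were found for 8 of the 30 members (26.7%), against 8.30% of all promoters and 9.55% of genes. The 9 members without a listed promoter were Usp18, Oas2, Mx1, Mx2, Dhx58, Zbp1, Ifi27, Rtp4 and Parp14. The windows below read 5′ to 3′ on the strand of the gene, and capitals mark the match. Ifit1 (chr19:34640794-34640823, plus strand), Stat2 (chr10:128270266-128270295, plus strand), Oas3 (chr5:120777715-120777744, minus strand), Rsad2 (chr12:26456553-26456582, minus strand) and Bst2 (chr8:71537577-71537606, minus strand) are examples picked among members with a match. Each passed a test described below, or met or came close to one of its thresholds. Samd9l and Irf7, which also passed a test, had no match, and Zbp1, which did too, had no listed promoter. Isg15 (chr4:156200865-156200894, minus strand) is shown as the name-giving gene of the class.
Ifit1: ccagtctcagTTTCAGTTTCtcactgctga
Stat2: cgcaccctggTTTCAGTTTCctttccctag
Oas3: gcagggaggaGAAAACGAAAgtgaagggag
Rsad2: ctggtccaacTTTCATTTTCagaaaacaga
Bst2: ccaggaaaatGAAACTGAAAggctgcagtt
Isg15: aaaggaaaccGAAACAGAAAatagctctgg
The first base of the match lay at -85 from the start site in Ifit1, -222 in Stat2, -75 in Oas3, -120 in Rsad2, -124 in Bst2 and -66 in Isg15. The pair Ifit3 (chr19:34583397-34583426, plus strand) and Ifit3b (chr19:34607793-34607822, plus strand) is shown because the windows of these neighbouring copies are the same, as are long stretches of their transcripts.
Ifit3: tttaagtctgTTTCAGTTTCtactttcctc
Ifit3b: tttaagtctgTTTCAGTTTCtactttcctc
A match says only that the letters are present in the window.

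Levels are given in FPKM, the fragments counted on a gene scaled by its length and by the size of its library, as the authors computed them. Between 13647036 and 28884450 reads per library could be recovered from the steps between values, up to a factor of 2 that the values do not settle. The share on mitochondrial genes moved with the groups, at 53.0% to 62.5% in C, 64.0% to 86.8% in M and 69.2% to 87.2% in AA. That left 6951352 to 13576620 reads on nuclear genes in C, 2077644 to 7142900 in M and 2225755 to 4271183 in AA, so C and AA did not overlap in either measure. A member rested on 0 to 5539 reads in a library, with a median of 126. Within group M, mice 1 to 3 stood apart from mice 4 and 5. Fits below that keep only 1 of these sets were chosen after seeing this split, and their values are a description. Mice 1 to 3 had 10068 to 12222 genes above 0 and 2077644 to 2770068 nuclear reads, against 23040 and 25460 genes and 6488512 and 7142900 nuclear reads in mice 4 and 5. The proximal tubule markers that should define a kidney were present in every C library, where the summed FPKM of 10 of them was 3174 to 13311.

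Most members were expressed at low levels in all 3 groups. Ifitm3, a membrane protein that keeps enveloped viruses from fusing with endosomes, had the highest mean level over the 15 libraries, 67.8 FPKM, and by itself made up 24.3% to 58.9% of the summed FPKM of the members in a library. Bst2, at a mean of 12 FPKM, and Ifi27, at 11.2 FPKM, came next, followed by Ifit3 (9.81), Ifit1 (6.09) and Samd9l (6.05). The number of members listed at 0 was 0 to 2 in the C libraries, 7 to 9 in M mice 1 to 3, 0 in M mice 4 and 5, and 1 to 4 in the AA libraries. Since the libraries differed in nuclear reads and in the number of genes above 0, a 0 is given here as a listed value and not as absence. In kidney tissue, fewer cells of a type and less RNA per cell cannot be told apart.

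**Figure D1:**
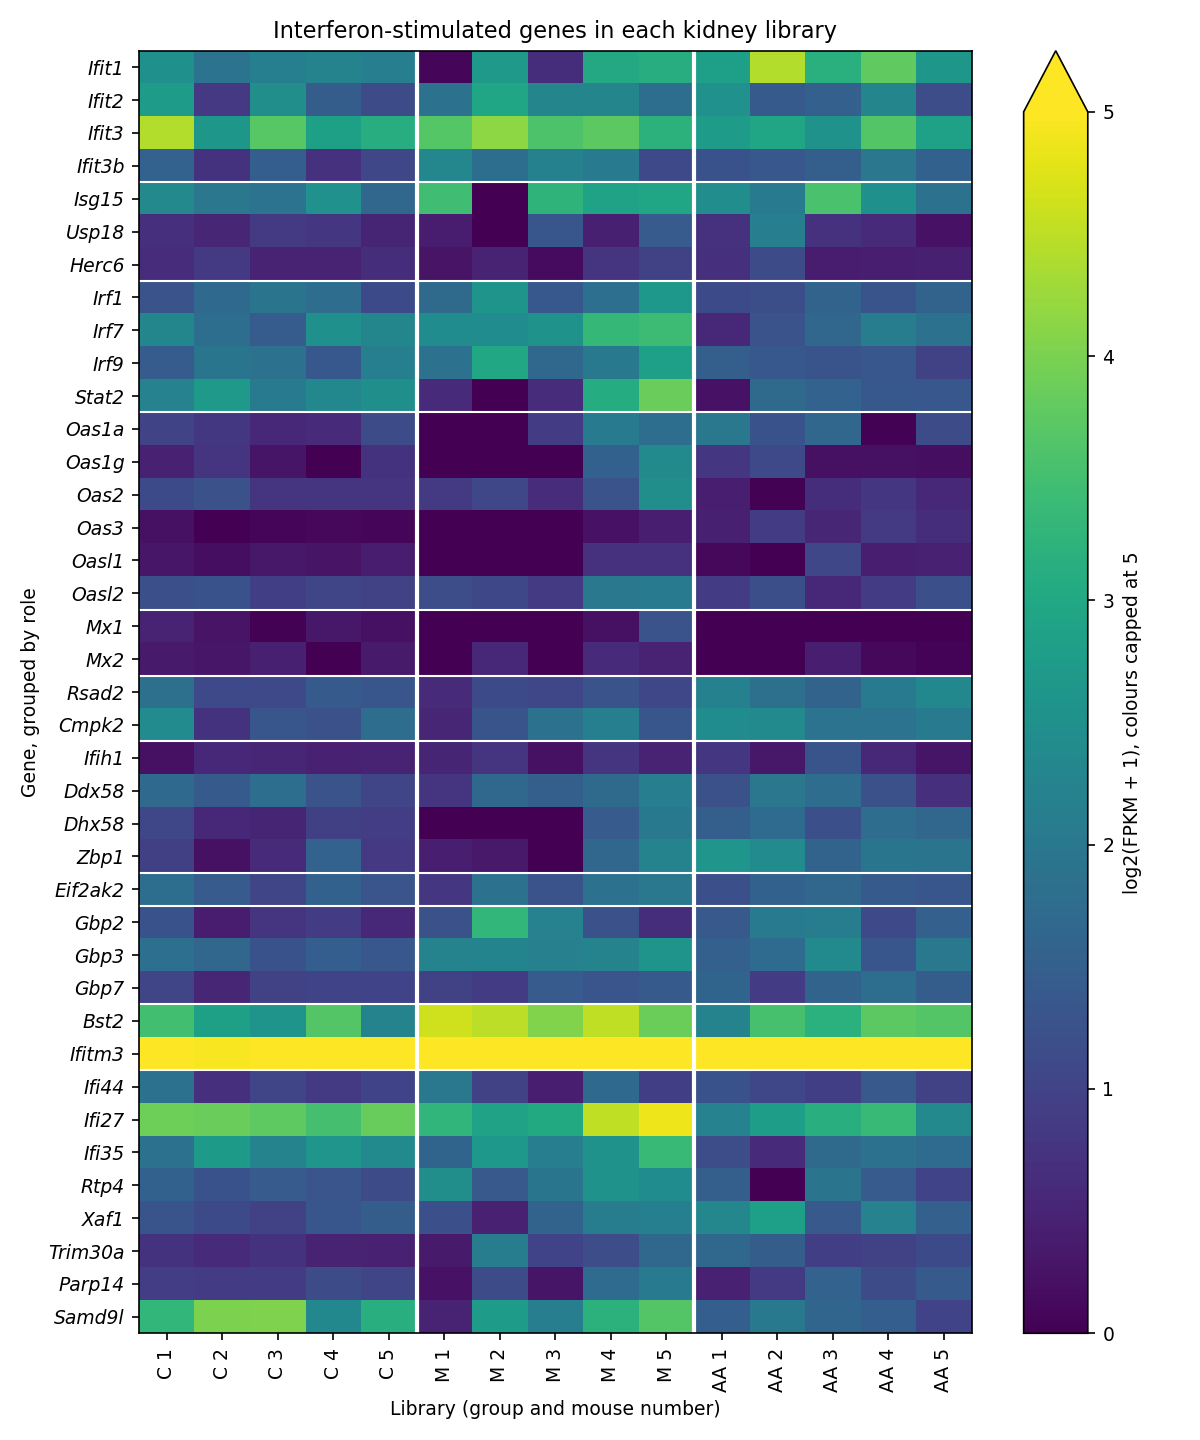
Level of each of the 39 genes (rows, grouped by role) in each of the 15 libraries (columns, group and mouse number), as log2(FPKM + 1) with colours capped at 5. Ifitm3 is the brightest row in every group, and dark cells are most frequent in M mice 1 to 3, where 7 to 9 genes are listed at 0.

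Each comparison was fitted with limma on log2(FPKM + 1) over every gene that 5 or more of its 10 libraries listed above 0. A gene passed if its p, after Benjamini-Hochberg adjustment over all genes tested, did not exceed 0.05 and its log2 fold change was 1 or more in size, the thresholds of the study. The comparison M vs. C asks what the adenine diet changed. None of the 39 members passed in limma, where 1.38% of the 21153 genes tested did (0.269% higher and 1.11% lower), and none had an adjusted p of 0.05 or less at any fold, where 1.47% did. At an unadjusted p under 0.05 there were 6 members (15.4%) against 16.5% of all genes. The comparison AA vs. M asks what AA changed in adenine-fed mice. Of the 38 members tested, 1 passed (2.63%), where 12.8% of 19798 genes did. Irf7 was the one that passed, and it fell, as 1.07% of all genes did, where 11.7% rose. An adjusted p of 0.05 or less at any fold was reached by 3 members (7.89%), against 17.8% of all genes, and an unadjusted p under 0.05 by 13 (34.2%), against 32.1%. The comparison AA vs. C sets treated mice against mice that never received adenine. Here 4 of 39 members passed (10.3%), where 19.8% of 21898 genes did. Ifit1 and Zbp1 rose, as 10.2% of all genes did, and Samd9l and Stat2 fell, as 9.61% did. With TPM 9 members passed and all 9 were lower, and with median centring 2 were higher and 4 lower. Mitochondrial share and nuclear reads separated C from AA, and their part in these calls was not tested. An adjusted p of 0.05 or less at any fold was reached by 13 members (33.3%), against 35.9% of all genes, and an unadjusted p under 0.05 by 15 (38.5%), against 46.8%. In all 3 comparisons the share of members that passed was below that of all genes, and at an unadjusted p under 0.05 it was below or close to it.

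The direction of the members without regard to the threshold was as follows. In M vs. C, 30 of 39 members had a log2 fold change above 0, where 32.1% of all genes did, and their median was 0.12 against -0.12 for all genes. In AA vs. M, 13 of 38 were above 0, where 62.3% of all genes were, and the median was -0.15 against 0.17. In AA vs. C, 24 of 39 were above 0, where 56.3% of all genes were, and the median was 0.11 against 0.09. The M libraries enter both of the first comparisons, which therefore are not separate evidence. Other scalings moved the median of all genes, in M vs. C to -0.58 with TPM and to 0.24 with median centring, and the medians of the members were then -0.26 and 0.49. In AA vs. M the medians of all genes were 0.12 with TPM and -0.35 with median centring, and those of the members -0.29 and -0.67. The groups did not overlap for 2 members in M vs. C (5.13%, against 4.72% of all genes), for 5 in AA vs. M (13.2%, against 13.2%) and for 9 in AA vs. C (23.1%, against 24.0%).

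**Figure D2:**
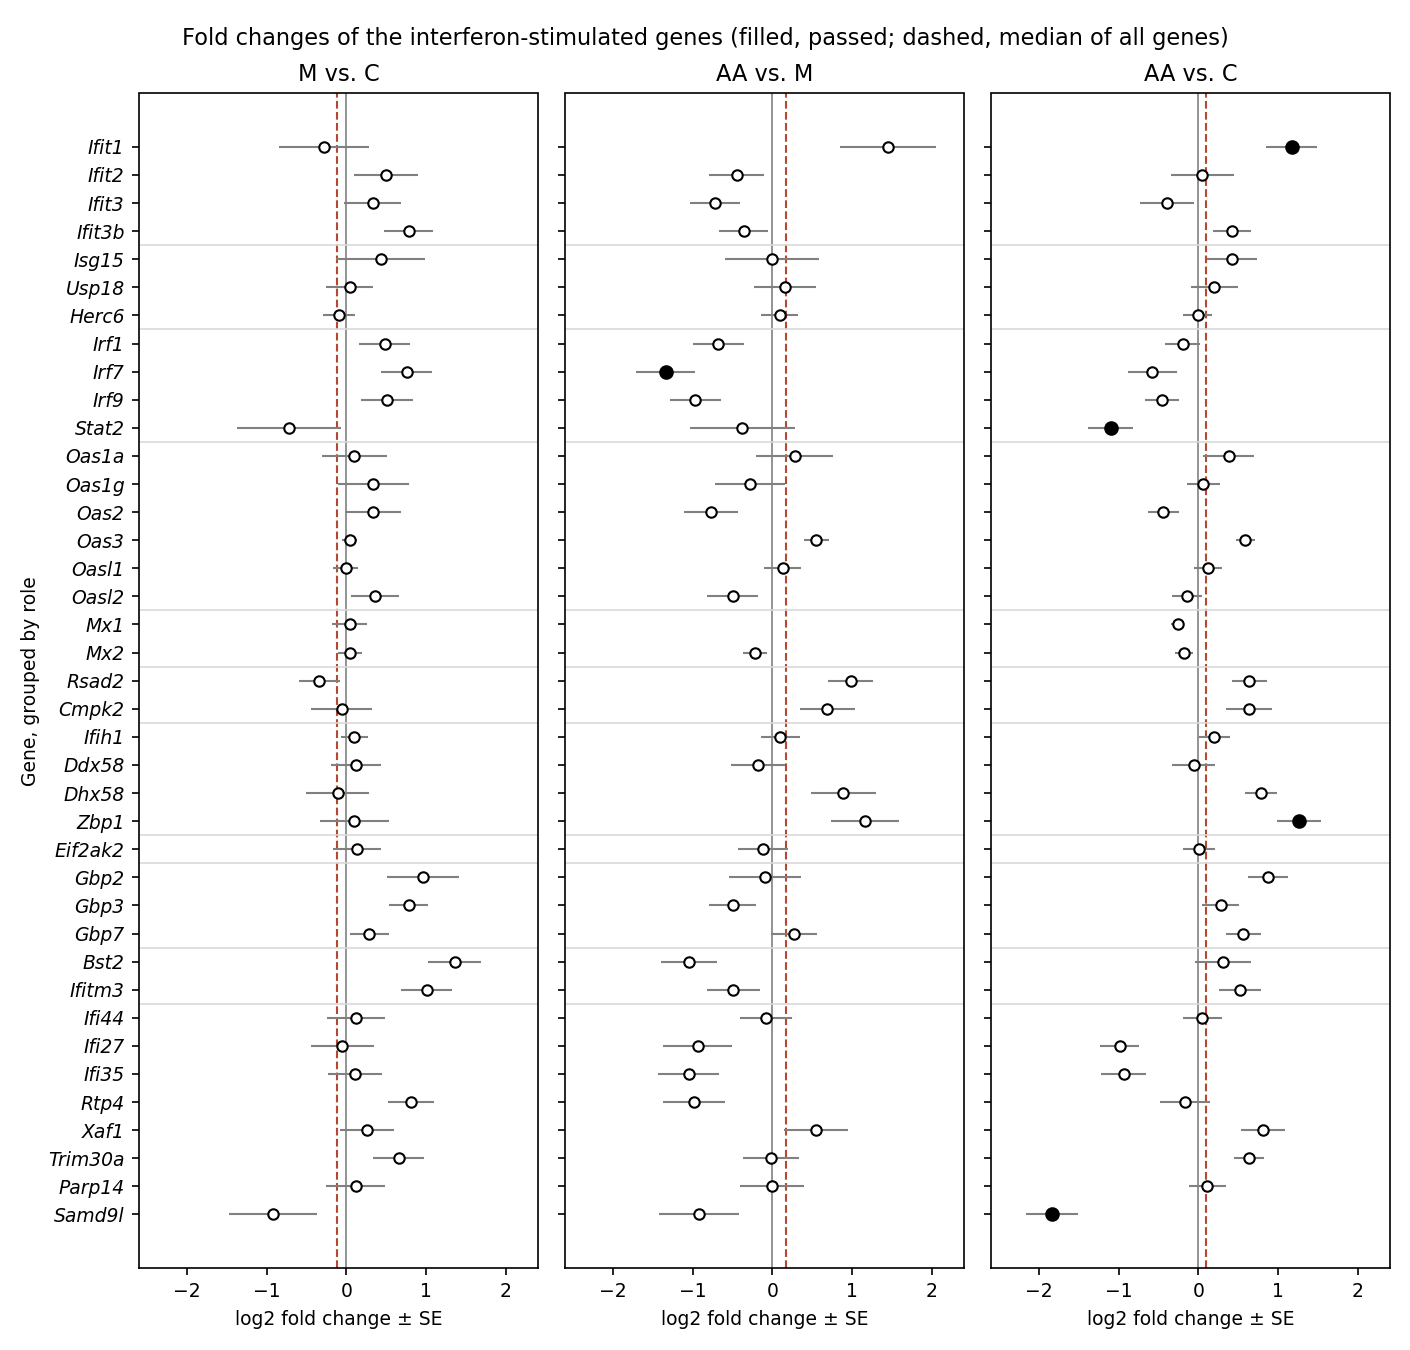
log2 fold change (x axis, log2(FPKM + 1) scale) with its SE for each gene (y axis, grouped by role) in each of the 3 comparisons. Filled points passed the test, open points did not, and the dashed line is the median of all genes tested (-0.12, 0.17 and 0.09). The filled points are Irf7 in AA vs. M and Ifit1, Stat2, Zbp1 and Samd9l in AA vs. C, and Mx1 was not tested in AA vs. M.

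The 4 transcription factors that carry or amplify the response all had negative fitted values both in AA vs. M and in AA vs. C, under every scaling tried, and 1 of 4 passed in each, where 12.8% and 19.8% of all genes did. The sign of Stat2 in AA vs. M turned with the M mice kept, as given below. Irf7 (chr7:141262706-141266481), the factor that drives interferon alpha genes in a feed-forward loop, was at 3.91, 2.51, 1.75, 4.70 and 3.92 FPKM in C mice 1 to 5. It was at 4.36, 4.41, 4.89, 9.09 and 9.80 FPKM in M mice 1 to 5 and at 0.467, 1.44, 2.15, 3.33 and 2.68 FPKM in AA mice 1 to 5. Every AA value lay below every M value, while C and AA overlapped. The fall in AA vs. M was -1.34 ± 0.37 (log2 fold change ± SE, n = 5 per group, adjusted p = 0.0226). In M vs. C the value was 0.76 (adjusted p = 0.266), and in AA vs. C it was -0.58 (adjusted p = 0.165). The call in AA vs. M was lost without AA mouse 1, the lowest library (-1.10, adjusted p = 0.0538). In the subsets chosen after seeing the data, the value was -0.97 with M mice 1 to 3 alone (adjusted p = 0.0634). With M mice 4 and 5 alone, which had the highest Irf7 levels, the value was -1.89 (adjusted p = 0.0225).

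Stat2 (chr10:128270559-128292849), a subunit of ISGF3, was at 3.65, 5.48, 3.10, 4.06 and 4.65 FPKM in the C mice and at 0.186, 2.30, 1.96, 1.59 and 1.57 FPKM in the AA mice. All AA values lay below all C values, and the fall in AA vs. C was -1.10 ± 0.28 (adjusted p = 0.0103). Without AA mouse 1 the log2 fold change was -0.85 (adjusted p = 0.0123), which is under the fold threshold. In the M mice Stat2 was at 0.524, 0, 0.547, 7.53 and 13.5 FPKM. Mice 1 to 3 of the model thus lay below every C mouse, and mice 4 and 5 above every C mouse. The difference in M vs. C was -0.72 ± 0.65 over all 5 M mice (adjusted p = 0.599), -1.94 with mice 1 to 3 alone (adjusted p = 0.00176) and 1.12 with mice 4 and 5 alone (adjusted p = 0.183). Its AA vs. M value was -0.38 over all M mice (adjusted p = 0.734), 0.84 with M mice 1 to 3 (adjusted p = 0.0996) and -2.22 with M mice 4 and 5 (adjusted p = 0.0140).

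Irf9, the DNA-binding part of ISGF3, was at 0.992 to 1.84 FPKM in AA and 2.19 to 6.86 FPKM in M, without overlap. The difference was -0.97 (adjusted p = 0.0531) and just missed both thresholds. Irf1, an activator that interferon gamma induces, was at 1.18 to 2.01 FPKM in AA, 1.61 to 5.38 FPKM in M and 1.18 to 2.77 FPKM in C. Its difference in AA vs. M was -0.68 (adjusted p = 0.162).

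Of the IFIT family, RNA-binding proteins that hold back translation of foreign mRNA, Ifit1 alone passed in any comparison. Ifit1 (chr19:34640871-34650009) was at 4.70, 2.76, 3.46, 3.74 and 3.42 FPKM in C and at 6.03, 20.4, 8.03, 12.7 and 5.24 FPKM in AA. The AA values all lay above the C values, a rise of 1.17 ± 0.32 (adjusted p = 0.0145) that stood at 0.91 without AA mouse 2, the highest library (adjusted p = 0.0222). The M values of 0.0649, 5.44, 0.582, 7.10 and 7.70 FPKM covered more than the whole range of C. In AA vs. M the difference was 1.45 ± 0.60 (adjusted p = 0.110), in M vs. C it was -0.28 ± 0.56 (adjusted p = 0.814), and with M mice 1 to 3 alone the former was 2.22 (adjusted p = 0.0126).

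The other IFIT genes lie beside Ifit1 on chromosome 19 but had other values. Ifit3 had levels of 5.23 to 20.6 FPKM in C, 8.26 to 16.7 FPKM in M and 4.85 to 11.7 FPKM in AA, and Ifit2 had 0.779 to 5.72, 2.50 to 6.73 and 1.27 to 4.75 FPKM in the same order. Their differences in AA vs. M were -0.72 (adjusted p = 0.131) for Ifit3 and -0.45 (adjusted p = 0.405) for Ifit2. Ifit3b was at 0.650 to 1.96 FPKM in C and 1.15 to 3.96 FPKM in M, a difference of 0.78 (adjusted p = 0.245). Of the words of 31 bases in the transcripts of Ifit3, 61.8% also occur in other genes, nearly all in Ifit3b, so the split of reads between these copies is uncertain. For Ifit1 that share was 10.5%.

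ISG15 is a ubiquitin-like tag, Herc6 attaches it in the mouse, and Usp18 removes it and blocks the type I receptor. None of these 3 genes passed in any comparison. Isg15 was at 2.13 to 4.81 FPKM in C and 2.71 to 10.8 FPKM in AA. In M it was at 10, 0, 8.57, 6.40 and 6.70 FPKM, so 4 of 5 model mice lay above every C mouse and mouse 2 was listed at 0. The difference in M vs. C was 0.43 ± 0.56 (adjusted p = 0.716). Usp18 was at 0.439 to 0.804 FPKM in C, 0 to 1.69 FPKM in M and 0.178 to 3.42 FPKM in AA, and Herc6 stayed between 0.111 and 1.22 FPKM in all 15 libraries.

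The OAS enzymes make the second messenger that activates the ribonuclease RNase L, an activity that Oasl1 lacks. No OAS gene passed both thresholds, and the 6 members did not share a direction. Oas3 was at 0.364, 0.863, 0.443, 0.811 and 0.580 FPKM in AA mice 1 to 5, above every C and M mouse. The C values were 0.167, 0, 0.0426, 0.0752 and 0.0465 FPKM, and the M values were 0, 0, 0, 0.183 and 0.331 FPKM. Its log2 fold change was 0.59 ± 0.12 in AA vs. C (adjusted p = 0.00330) and 0.55 ± 0.16 in AA vs. M (adjusted p = 0.0289), both below the fold threshold on a scale that understates changes of genes this low. With a pseudocount of 0.1 in place of 1 the values were 2.12 (adjusted p = 0.00332) and 2.05 (adjusted p = 0.0333), and Oas3 passed in both. Between 11 and 118 reads lay behind each Oas3 value above 0. Oas3 was listed at 0 in 3 M mice and 1 C mouse. It reached 5 listings above 0 only through its AA libraries, so its values in both comparisons are a description.

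Oas2 was at 0.0249 to 0.731 FPKM in AA, 0.562 to 4.53 FPKM in M and 0.698 to 1.35 FPKM in C, and the AA range overlapped with both others. Its difference was -0.77 in AA vs. M (adjusted p = 0.137) and -0.44 in AA vs. C (adjusted p = 0.0842). Oas1a was at 0.495 to 1.25 FPKM in C and 0.0258 to 3.00 FPKM in AA, and Oas1g was at 0 to 0.680 FPKM in C and 0.133 to 1.14 FPKM in AA. In M, Oas1a was at 0, 0, 0.859, 3.13 and 2.48 FPKM and Oas1g at 0, 0, 0, 1.95 and 4.16 FPKM, so mice 4 and 5 were above every C mouse for both genes. These copies share 68.8% (Oas1a) and 55.1% (Oas1g) of their words of 31 bases with other genes, mostly with each other. Oasl1 was listed at 0 in M mice 1 to 3 and at 0.641 and 0.639 FPKM in mice 4 and 5, and Oasl2 was at 0.809 to 1.28 FPKM in the former and 2.98 and 3.18 FPKM in the latter.

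The Mx proteins are GTPases that trap viral nucleoprotein, and in this strain both genes are known to be defective, with Mx2 annotated as a polymorphic pseudogene. Mx1 was at 0.395, 0.197, 0.0159, 0.242 and 0.166 FPKM in C and was listed at 0 in all 5 AA mice, so no fold is given. In AA vs. C it was lower in limma at an adjusted p of 0.0293, under the fold threshold. It passed as lower with a pseudocount of 0.1 (adjusted p = 0.0132) and with voom (adjusted p = 0.0136). These values are a description, since Mx1 reached 5 listings above 0 only through its C libraries. In M it was at 0, 0, 0, 0.162 and 1.44 FPKM. Only 4 to 48 reads lay behind the C values, and 3 reads would correspond to 0.0385 to 0.0879 FPKM in the AA libraries. Mx1 was above 0 in too few libraries to be tested in AA vs. M. Mx2 was at 0 to 0.358 FPKM in C, 0 to 0.528 FPKM in M and 0 to 0.332 FPKM in AA.

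Rsad2 encodes viperin, which makes a chain-terminating nucleotide from the CTP that its genomic neighbour Cmpk2 supplies. Both fitted values in AA vs. M were above 0 under every scaling tried, and neither gene passed. Rsad2 was at 3.57, 2.58, 2.00, 3.25 and 4.04 FPKM in AA and at 0.517, 1.19, 1.09, 1.44 and 1.09 FPKM in M, without overlap. The difference of 0.98 ± 0.28 passed on the adjusted p (0.0276) and was just short of the fold threshold. When each of the 10 libraries was left out in turn, the adjusted p exceeded 0.05 in 5 fits and reached 0.0648 without AA mouse 5. In 4 fits Rsad2 was past both thresholds, without M mouse 2 (1.01, adjusted p = 0.0423), M mouse 4 (1.04, adjusted p = 0.0348), AA mouse 2 (1.02, adjusted p = 0.0426) or AA mouse 3 (1.09, adjusted p = 0.0266). The C values of 2.58, 1.16, 1.16, 1.68 and 1.54 FPKM overlapped with AA through mouse 1. Cmpk2 was at 2.73 to 4.39 FPKM in AA, 0.455 to 3.46 FPKM in M and 0.663 to 4.29 FPKM in C, and its difference in AA vs. M was 0.69 (adjusted p = 0.174).

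Among the sensors of nucleic acid, Zbp1 rose in AA vs. C. Zbp1 (chr2:173206612-173218923) binds left-handed double-stranded nucleic acid and can start necroptosis. It was at 0.926, 0.169, 0.520, 1.97 and 0.771 FPKM in C and at 5.12, 4.30, 2.00, 2.86 and 2.78 FPKM in AA, without overlap. The rise was 1.26 ± 0.28 (adjusted p = 0.00559) and passed without any one library. In M the values were 0.342, 0.271, 0, 2.13 and 3.71 FPKM, and mice 4 and 5 lay within the AA range. The difference in AA vs. M was 1.16 ± 0.43 over all M mice (adjusted p = 0.0765), 1.84 with M mice 1 to 3 (adjusted p = 0.00164) and 0.15 with M mice 4 and 5 (adjusted p = 0.803).

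Dhx58 (LGP2), a helicase that tunes the RIG-I-like receptors, had a like order of groups at lower levels. It was at 1.84, 2.37, 1.34, 2.45 and 2.13 FPKM in AA, above the C values of 1.08, 0.494, 0.428, 0.930 and 0.886 FPKM. The difference of 0.78 ± 0.20 had an adjusted p of 0.0105 and missed the fold threshold, which it passed with a pseudocount of 0.1 (1.34, adjusted p = 0.0129) and with voom on recovered reads (1.77, adjusted p = 0.00851). Dhx58 was listed at 0 in M mice 1 to 3 and stood at 1.70 and 3.05 FPKM in mice 4 and 5. The RIG-I-like receptors themselves did not pass. Ddx58 (RIG-I) was at 1.05 to 2.49 FPKM in C, 0.697 to 3.39 FPKM in M and 0.617 to 2.93 FPKM in AA. Ifih1 (MDA5) was at 0.164 to 0.475, 0.162 to 0.714 and 0.221 to 1.47 FPKM. The kinase PKR, encoded by Eif2ak2, which halts translation on binding double-stranded RNA, had differences of 0.13 in M vs. C, -0.12 in AA vs. M and 0.01 in AA vs. C.

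**Figure D3:**
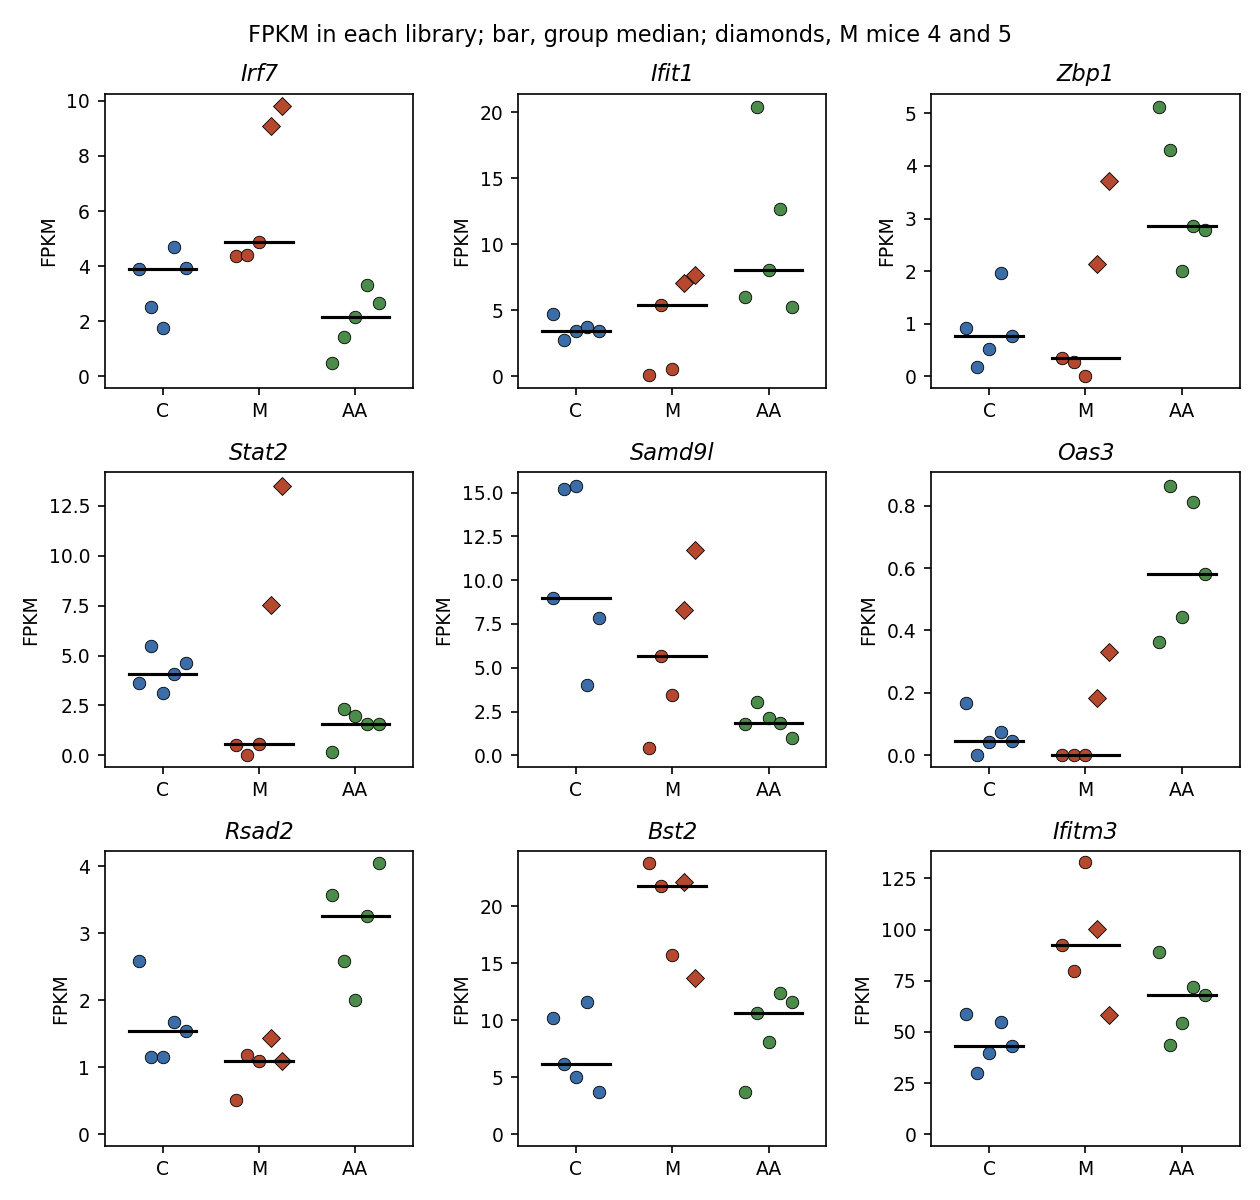
FPKM of 9 genes (y axes, linear) in every library of groups C, M and AA (x axes), with a bar at the group median and diamonds for M mice 4 and 5. AA lies below M without overlap for Irf7 and Bst2 and above M for Oas3 and Rsad2, whereas the M mice split between circles and diamonds for Stat2, Zbp1, Oas3 and Irf7.

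The membrane restriction factors had the highest median of any role in M vs. C, 1.18, but neither gene passed. Bst2 (chr8:71534255-71537456), or tetherin, which holds budding virions on the cell, was at 10.2, 6.14, 5.02, 11.6 and 3.71 FPKM in C and at 23.8, 21.8, 15.7, 22.1 and 13.7 FPKM in M. The groups did not overlap, but the difference of 1.36 ± 0.33 had an adjusted p of 0.0657. In AA it was at 3.74, 10.6, 8.12, 12.4 and 11.6 FPKM, below every M mouse and within reach of the C range, and the difference in AA vs. M was -1.05 ± 0.35 (adjusted p = 0.0515). Against C the AA value was 0.31 ± 0.35 (adjusted p = 0.506). Without M mouse 5, the lowest of its group, Bst2 passed in M vs. C (1.47, adjusted p = 0.0343) and in AA vs. M (-1.16, adjusted p = 0.0330), and without any other library it passed in neither.

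Ifitm3 (chr7:141009586-141010770) was at 58.8, 29.8, 39.5, 54.7 and 43.2 FPKM in C and at 92.5, 79.6, 133, 100.3 and 58.3 FPKM in M. Only M mouse 5 overlapped with C, and the difference was 1.01 ± 0.32 (adjusted p = 0.139), or 1.16 without that mouse (adjusted p = 0.0463), the one left-out library with which it passed. In AA it was at 88.9, 43.5, 54.6, 71.9 and 68.0 FPKM, with mice 2 and 3 within the C range and mice 1, 4 and 5 within the M range. The differences were -0.49 ± 0.33 against M (adjusted p = 0.338) and 0.52 ± 0.26 against C (adjusted p = 0.137). Of the words of 31 bases in Ifitm3, 20.5% also occur in other genes.

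The guanylate-binding proteins, GTPases that coat vacuoles of pathogens and respond chiefly to interferon gamma, had positive fitted values against C in both adenine-fed groups, but none passed, and with TPM Gbp7 turned negative in both comparisons and Gbp3 in AA vs. C. Gbp3 was at 3.52 to 5.05 FPKM in M and 1.39 to 2.55 FPKM in C, without overlap, a difference of 0.78 (adjusted p = 0.140). Gbp2 was at 0.316 to 1.39 FPKM in C and 1.16 to 3.28 FPKM in AA, a difference of 0.87 (adjusted p = 0.0190) that was short of the fold threshold and passed it with a pseudocount of 0.1 (adjusted p = 0.0197) and with voom (1.82, adjusted p = 0.0228). In M it ranged from 0.573 to 8.90 FPKM. Gbp7 was at 0.452 to 1.05 FPKM in C and 0.830 to 2.48 FPKM in AA (0.56, adjusted p = 0.0623).

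Of the remaining 8 members, Samd9l had the largest fall of any member. Samd9l (chr6:3372257-3399572), which restrains translation and growth and is linked to familial marrow failure, was at 8.97, 15.2, 15.4, 4.02 and 7.86 FPKM in C and at 1.81, 3.06, 2.11, 1.83 and 0.995 FPKM in AA. All AA values lay below all C values, and the difference of -1.84 ± 0.33 (adjusted p = 0.00194) passed without any one library. In M it was at 0.413, 5.66, 3.43, 8.29 and 11.7 FPKM, with differences of -0.92 ± 0.55 against C (adjusted p = 0.426) and -0.92 ± 0.50 in AA vs. M (adjusted p = 0.222). The latter was -1.91 against M mice 4 and 5 alone (adjusted p = 0.0103).

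Ifi27 (chr12:103434211-103440239), a small membrane protein of mitochondria and the nuclear envelope, was at 13.9, 13.4, 12.5, 10.5 and 13.3 FPKM in C, within a narrow range. It was at 3.65, 5.97, 7.95, 9.37 and 4.11 FPKM in AA, below every C mouse. The difference of -0.99 ± 0.25 (adjusted p = 0.0101) was just under the fold threshold, and it passed both without C mouse 4 (-1.05), AA mouse 3 (-1.08) or AA mouse 4 (-1.14). In M, Ifi27 was at 8.81, 6.39, 7.23, 22.0 and 28.3 FPKM, so mice 1 to 3 lay below C and mice 4 and 5 above it. Differences were -0.05 ± 0.40 in M vs. C (adjusted p = 0.957) and -0.94 ± 0.43 in AA vs. M (adjusted p = 0.151).

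Ifi35, which joins Nmi in a cytokine-regulating complex, was at 0.514 to 2.64 FPKM in AA, 2.05 to 9.46 FPKM in M and 2.63 to 5.60 FPKM in C. Its difference was -0.94 in AA vs. C (adjusted p = 0.0212) and -1.05 in AA vs. M (adjusted p = 0.0711). Of its exon bases, 16.8% overlap a gene on the other strand. Rtp4, a chaperone of receptors, was at 1.62 to 4.91 FPKM in M and 1.23 to 1.93 FPKM in C (0.81, adjusted p = 0.190), and it was at 0 to 2.78 FPKM in AA. Xaf1, which opposes the caspase inhibitor XIAP, was at 0.979 to 1.77 FPKM in C and 1.62 to 6.08 FPKM in AA (0.81, adjusted p = 0.0368). Trim30a, a ubiquitin ligase that dampens NF-kappa-B signalling, was at 0.378 to 0.666 FPKM in C and 0.908 to 2.18 FPKM in AA, without overlap (0.63, adjusted p = 0.0247). With a pseudocount of 0.1 both passed in AA vs. C, Xaf1 at 1.13 (adjusted p = 0.0371) and Trim30a at 1.22 (adjusted p = 0.0242). Ifi44 and Parp14 had values of no more than 0.12 in size in all 3 comparisons over all mice. For Parp14 the M mice differed, since M vs. C was 0.92 with mice 4 and 5 (adjusted p = 0.154) and -0.42 with mice 1 to 3 (adjusted p = 0.238), and AA vs. M was -0.81 (adjusted p = 0.178) and 0.53 (adjusted p = 0.271).

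The per-library mean of log2(FPKM + 1) over the 39 members put the 3 groups close together. It was 1.49 ± 0.12 (SD, n = 5) in C, 1.73 ± 0.38 in M and 1.57 ± 0.08 in AA. The same mean over all genes was 1.16 ± 0.07, 0.98 ± 0.22 and 1.22 ± 0.04. By library the mean over the members was 1.70, 1.38, 1.45, 1.47 and 1.43 in C, 1.33, 1.58, 1.48, 2.07 and 2.20 in M, and 1.5, 1.62, 1.64, 1.63 and 1.46 in AA. M mice 1 to 3 lay within the C range or just below it, and M mice 4 and 5 lay above every other library. Over all genes M mice 1 to 3 had means of 0.85, 0.78 and 0.85, below every other library. Those of M mice 4 and 5 were 1.15 and 1.27, and those of C ran from 1.05 to 1.23. The nearness of M mice 1 to 3 to C in the member mean thus came with a lower mean over all genes. In M vs. C the member mean differed by 0.24 over all M mice, 0.65 with mice 4 and 5 alone and -0.03 with mice 1 to 3 alone. In AA vs. M it differed by -0.16, -0.56 and 0.11 in the same order, and in AA vs. C by 0.09. No p is attached to these means, since the members were chosen with results of these data known. Mice 4 and 5 were both above mice 1 to 3 for 18 of 39 members (46.2%), where they were for 48.2% of all genes tested in M vs. C, and both below for 1 member (2.56%, against 7.32%).

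**Figure D4:**
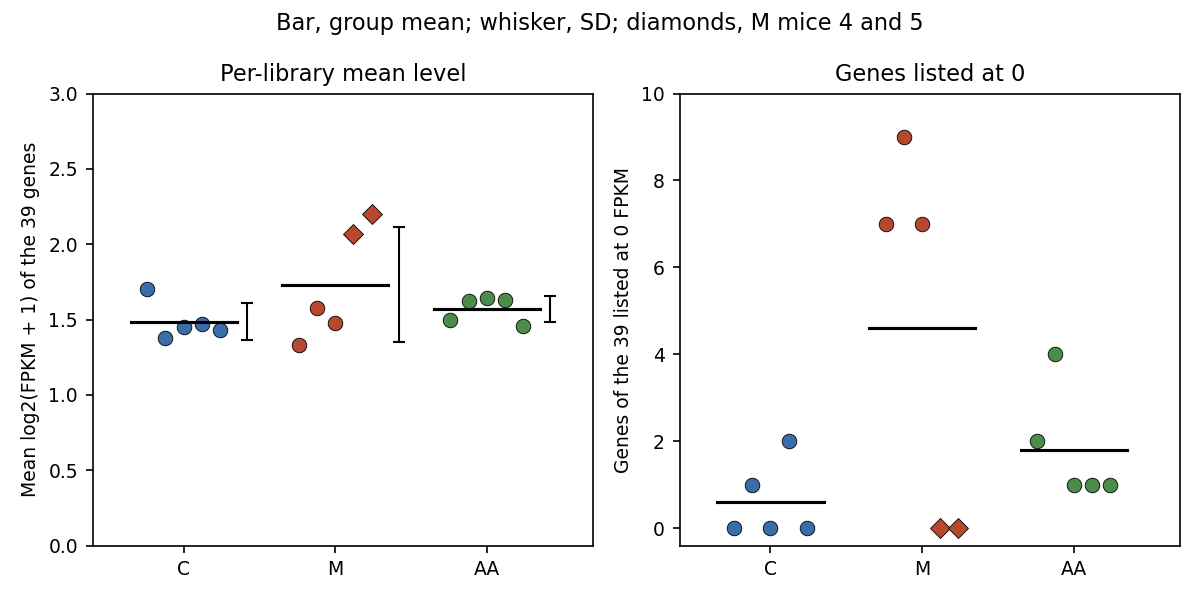
Left, mean log2(FPKM + 1) of the 39 genes in each library of C, M and AA, with the group mean as a bar and the SD as a whisker. Right, the number of the 39 genes listed at 0 FPKM, with the group mean as a bar. M mice 4 and 5 (diamonds) have the highest means, 2.07 and 2.20, and no gene at 0, while M mice 1 to 3 have 7 to 9 genes at 0.

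Most interferon genes were listed at 0, whereas Ifna7 and Ifng were above 0 in every AA mouse. Of 17 type I interferon genes, 14 were listed at 0 in all 15 libraries, as were the type III genes Ifnl2 and Ifnl3. Ifnab was above 0 in M mouse 5 alone (0.0606 FPKM), and Ifna13 in 4 libraries, the highest of which was AA mouse 3 (1.30 FPKM). Ifna7 was at 2.18, 2.52, 2.09, 1.02 and 1.73 FPKM in AA, at 0 in M mice 1 to 4 and 0.671 FPKM in mouse 5, and at 1.96, 0, 0, 0.928 and 0 FPKM in C. Its fitted value was 1.37 ± 0.26 in AA vs. M (adjusted p = 0.00500) and 1.01 ± 0.32 in AA vs. C (adjusted p = 0.0283). Only through the AA libraries did Ifna7 reach the 5 listings above 0 that the test required. Both values are therefore a description, and in M vs. C the gene was above 0 in too few libraries to be tested. Ifng, the T and NK cell cytokine of the type II response, was at 1.70, 7.28, 1.08, 1.88 and 1.44 FPKM in AA, 0, 0, 0, 0.632 and 1.46 FPKM in M, and 0.769, 0, 0.186, 0.433 and 0.715 FPKM in C. Its fitted value was 1.27 ± 0.41 in AA vs. M (adjusted p = 0.0455) and 1.20 ± 0.35 in AA vs. C (adjusted p = 0.0194). Ifng was listed at 0 in 3 M mice and 1 C mouse, so it too reached 5 listings above 0 only through its AA libraries. These values are likewise a description. When only M mice 4 and 5 were kept, the AA vs. M values were 1.14 for Ifna7 (adjusted p = 0.0603) and 0.67 for Ifng (adjusted p = 0.420).

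The pathway around the members was read from lists of interferons, receptors, kinases and factors, adaptors, negative regulators and 49 further interferon-responsive genes. Of 77 such genes tested in M vs. C, 2 passed (2.6%, against 1.38% of all genes), and both rose. Socs3, the inhibitor of cytokine receptor kinases, went from 0.310 to 0.920 FPKM in C to 4.14 to 6.24 FPKM in M (1.94 ± 0.25, adjusted p = 0.0131). Ifi204, a DNA-binding p200 protein, went from 0.109 to 0.455 FPKM to 1.59 to 4.89 FPKM (1.55 ± 0.30, adjusted p = 0.0293). When each of the 10 libraries was left out in turn, the call of Socs3 held in 9 fits and that of Ifi204 in 3. None of the 6 receptor genes passed in any comparison. Ifngr1, the ligand-binding chain of the interferon gamma receptor, was at 4.99 to 11.9 FPKM in M and 2.46 to 4.67 FPKM in C (1.04, adjusted p = 0.0961), and Ifngr2 was at 3.15 to 5.95 and 1.24 to 2.81 FPKM (0.70, adjusted p = 0.227). Ifnar1 and Ifnar2 had differences in M vs. C of -0.02 and 0.34, and Jak1 one of 0.32.

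In AA vs. M, 7 of 78 pathway genes passed (8.97%, against 12.8%). Ifna7, Ifng, the nuclear body protein gene Sp110 (1.59, adjusted p = 0.00720) and Gbp4 (1.21, adjusted p = 0.0239) rose. Ifna7 and Ifng are in these counts, but they entered this test and that of AA vs. C only through their AA libraries. The phosphatase gene Ptpn6 (-1.26, adjusted p = 0.0265), the immunity-related GTPase gene Igtp (-1.43, adjusted p = 0.0360) and Pnpt1, a mitochondrial RNA exonuclease (-1.05, adjusted p = 0.0466), fell. With median centring 1 pathway gene was higher and 12 were lower, and with TPM none passed in limma, where 10 had an unadjusted p under 0.05. Of the 10 fits that each left out 1 library, Sp110 passed in all, Ptpn6 in 7, Gbp4 in 5, Igtp in 4 and Pnpt1 in 2. Ifna7 passed in all and Ifng in 3, but leaving out 1 library does not undo their entry through the AA libraries. In AA vs. C, 14 of 79 passed (17.7%, against 19.8%), of which 10 rose and 4 fell. This split turned with the scaling, to 0 higher and 19 lower with TPM and to 4 higher and 8 lower with median centring. The chemokine gene Cxcl10 rose (1.11, adjusted p = 0.0105). Among the others that rose were Ifna7, Ifng, Socs3, Ptpn11, Sp110, Ifi204, Lgals3bp and Gbp4. Of the 9 listed JAK, STAT and IRF factors, 1 passed as higher, not named here, and 2 as lower. Irf3, the factor that first switches on interferon beta, fell by 2.61 on the log2 scale (adjusted p = 0.000209), from 7.98 to 21.1 FPKM in C to 0.555 to 2.31 FPKM in AA. Tyk2 fell as well (-1.08, adjusted p = 0.00436), along with Igtp and Pnpt1. Calls held in 7 or more of the 10 fits that left out 1 library, apart from Ifna7 and Ptpn11 (4 each) and Socs3 (3). Stat2 fell in AA vs. C, while Irf9, which it joins in ISGF3, stood at -0.46 (adjusted p = 0.110). Irf3 and Tyk2 were split in the M group as Stat2 was, with Irf3 at 0.300 to 0.667 FPKM in mice 1 to 3 and 9.27 and 14.6 FPKM in mice 4 and 5.

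Members with and without ISRE letters were set side by side. Of the 18 members with the letters, 15 had a log2 fold change above 0 in AA vs. C, with a median of 0.40, as did 5 of the 12 members whose listed promoter lacked them, with a median of -0.07. In M vs. C the counts were 15 of 18 (median 0.31) and 8 of 12 (0.19), and in AA vs. M they were 6 of 18 (-0.11) and 4 of 12 (-0.47). Irf7 and Samd9l were among those without a match, and Ifit1 and Stat2, which moved in opposite directions in AA vs. C, both held the same 10 bases.

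Markers of other cells moved between the same groups. Proximal tubule markers summed to 92.7 to 547 FPKM in M and 168 to 565 FPKM in AA, against 3174 to 13311 FPKM in C, and 8 of 10 fell in M vs. C and 9 of 10 in AA vs. C. The macrophage list summed to 18.4 to 119.7 FPKM in C, 163 to 473 FPKM in M and 114 to 169.5 FPKM in AA. Of its 10 genes, 5 rose in M vs. C, 1 fell in AA vs. M, and 5 rose and 1 fell in AA vs. C. Csf1r, a defining macrophage gene, was at 6.92 to 15.9 FPKM in C, 2.31 to 8.28 FPKM in M and 0.90 to 4.70 FPKM in AA, and Adgre1 was at 0 to 1.26, 0.643 to 6.74 and 0.921 to 2.13 FPKM. The T and NK cell list summed to 0.947 to 11.3 FPKM in C, 1.74 to 22.6 FPKM in M and 15 to 25.8 FPKM in AA, but its genes did not move together. Cd3g (6.27 to 15.8 FPKM in AA and 0 to 4.35 FPKM in M), Cd3e and Ncr1 rose in AA vs. M and in AA vs. C. In AA vs. M these 3 genes, each listed at 0 in 2 or 3 M mice, reached 5 listings above 0 only through their AA libraries. None of the other 7 passed where tested, and of these Cd2, Cd3d, Cd4, Cd8a, Nkg7 and Klrb1c had lower means in AA than in M, such as 0.135 against 1.34 FPKM for Cd2 and 1.56 against 3.54 FPKM for Nkg7. The 4 plasmacytoid dendritic cell markers summed to 0.784 to 8.06, 0 to 3.36 and 4.43 to 8.33 FPKM. Ccr9 rose in AA vs. M (1.27, adjusted p = 0.00889) and in AA vs. C (1.09, adjusted p = 0.00429). Pacsin1 rose as well (1.24, adjusted p = 0.0239, and 1.00, adjusted p = 0.0214). In AA vs. M, Ccr9 (listed at 0 in 3 M mice) and Pacsin1 (in 2) likewise reached 5 listings above 0 only through AA libraries. Cox6a2 and Siglech passed in no comparison, and Siglech, the most specific of the list, was at 0 to 0.994 FPKM throughout. B cell (5 genes), neutrophil (5), endothelial (6) and fibroblast (6) lists had summed ranges in AA of 1.30 to 2.22, 0.50 to 10.8, 20.2 to 56.5 and 234 to 415 FPKM, against 0.389 to 2.33, 2.05 to 40.1, 23.2 to 39.3 and 103 to 387 FPKM in M and 0.740 to 20.4, 1.41 to 11.2, 20.6 to 92.1 and 59.0 to 126 FPKM in C. Of the fibroblast genes, 1 rose in M vs. C, 1 in AA vs. M and 5 in AA vs. C. In AA vs. C 1 B cell gene and 1 neutrophil gene fell, and no endothelial gene passed in any comparison. The part of all these cells in the values of the members was not tested.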

How the data were processed

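Poly-A RNA of 15 kidneys (5 per group) was sequenced in paired ends of 150 bases. Reads were trimmed (fastp), aligned to mm10 with HISAT2 2.0.5 and counted with featureCounts 1.5.0-p3, and the authors deposited FPKM per gene. Strand and multimapping settings, and the library total behind FPKM, are not given in the sources used here. FPKM × length sums to 0.435 to 1.93 of the total that definition implies. Counts were not used here, so limma 3.58.1 (R 4.3.3; lmFit, eBayes with trend) on log2(FPKM + 1) replaced the study's count test, for genes that 5 or more of the 10 libraries listed above 0. Whole reads were recovered from steps of FPKM × length (97.5% to 98.9% of low values whole within 0.02). Positions came from GENCODE M21, which lacked 37 identifiers, and promoters from RefSeq GRCm38.p6. The fit was checked on simulated normal log values with the same spread of a gene in both groups. That check does not cover the uneven M group. Members and lists were chosen with earlier results of these data known. Every member could be named, and full statistics were given for members that passed anywhere and for the 3 most abundant. From the pathway lists, most genes that passed and named receptors and factors were given. Python 3.11.15, numpy 2.4.6, pandas 2.3.3 and matplotlib 3.10.9 were used.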

Additional observations from a re-analysis of the deposited data

Results flagged for a closer look

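Sets of 5 libraries were examined on the log2(FPKM + 1) scale, for 39 members and their mean, in 3 groups. In 9 of 120 sets (7.50%), the gap of 1 library to the nearest exceeded 0.710 of the range of the group. Ratios below are on that scale, while levels of genes are in FPKM. Chance alone gives about 1 in 20. In AA these were Mx2, highest in mouse 3 at 0.332 FPKM (ratio of gap to range 0.729), Stat2, lowest in mouse 1 at 0.186 FPKM (0.756), and Usp18, highest in mouse 2 at 3.42 FPKM (0.747). In C they were Gbp7, lowest in mouse 2 at 0.452 FPKM (0.877), Ifih1, lowest in mouse 1 at 0.164 FPKM (0.718), and the mean of the 39 members, highest in mouse 1 at 1.70 (0.740). In M they were Gbp3, highest in mouse 5 at 5.05 FPKM (0.828), Isg15, listed at 0 in mouse 2 (0.834), and Mx1, highest in mouse 5 at 1.44 FPKM (0.831). No library held more than 2 of the 9.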

How the results depend on the processing

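Counts of called members moved with the scaling and with the M libraries, and the causes were not tested. In M vs. C the count of 0 became 1 with a mean FPKM of at least 1, scaling per nuclear fragment, quantile normalization or all 15 libraries in one fit (Bst2 each time), ranged from 0 to 2 with each library left out, and was 5 with M mice 1 to 3 only, an alternative chosen after seeing the data. In AA vs. M the count of 1 became 4 with a pseudocount of 0.1, 0 with TPM, 3 per nuclear fragment, 11 with median centring (all lower, as the median of all genes moved from 0.17 to -0.35), 6 with quantile normalization, 4 with all 15 libraries, 5 with quality weights and 3 with voom on recovered reads. It ranged from 0 (without AA mouse 1) to 4 (without M mouse 5) with each library left out, and was 8, all lower, with M mice 4 and 5 only and 5, of which 4 were higher, with M mice 1 to 3 only. In AA vs. C the count of 4 became 12 with a pseudocount of 0.1, 9 with TPM (all lower), 2 with all 15 libraries and 12 with voom, and ranged from 3 to 7 (without AA mouse 4) with each library left out.

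Counts of called pathway genes were 2 in M vs. C, 7 in AA vs. M and 14 in AA vs. C. The first count was 1 with no filter, 0 to 5 with each library left out, 0 with M mice 4 and 5 only and 12 with M mice 1 to 3 only. The count in AA vs. M was 4 with no filter, 0 with TPM, 13 with median centring and 3 to 6 with each library left out. The count in AA vs. C was 26 with a pseudocount of 0.1, 28 with voom, 19 with TPM (all lower, against 10 higher and 4 lower), 12 with median centring (4 higher and 8 lower) and 8 to 16 with each library left out. A replicate block by mouse number gave 1, 4 and 14 called pathway genes and left the member counts at 0, 1 and 4. Mouse numbers did not pair the libraries, since correlations of same-numbered libraries ran from -0.13 to 0.22.

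The mean over the members differed by 0.24 in M vs. C, and by -0.35 with TPM, 0.60 with median centring and 0.65 with M mice 4 and 5 only. In AA vs. M it differed by -0.16, and by -0.67 with median centring, -0.47 with quantile normalization and -0.56 with M mice 4 and 5 only. In AA vs. C it differed by 0.09, and by -0.62 with TPM, -0.07 with median centring and 0.21 with voom.

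Of the calls named in the text, Irf7 was lost with TPM (-1.45, adjusted p = 0.166), Ifit1 with TPM (0.24, adjusted p = 0.644) and with all 15 libraries (adjusted p = 0.101), Stat2 with all 15 libraries (adjusted p = 0.162) and Zbp1 with TPM (0.75, adjusted p = 0.134). With TPM the median of all genes in AA vs. C moved from 0.09 to -0.39. Samd9l kept its call in AA vs. C under every alternative run. With 5 libraries a group and 3282 to 22595 reads on all 39 members per library, small changes of members near 0 were not detectable.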
